A study of Mus musculus with 32 samples.

Results

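The genes described here make cholesterol, control its synthesis and move or store it: 29 genes were chosen by name, and all 29 were found among the 54532 genes of the deposited count table. They are 19 enzymes of the synthesis route from acetyl-CoA, 4 genes of SREBP2 control (Srebf2, Scap, Insig1 and Insig2), Mylip and Stard4, the efflux transporters Abca1, Abcg5 and Abcg8, and the esterifying enzyme Soat2. The livers came from wild-type mice fed for 2 weeks either a high-fat diet free of choline and low in methionine (cdHFD) or normal chow, a design whose stated subject is the daily rhythm of the liver transcriptome in steatohepatitis. Collection was at 4 points of the day, ZT2, ZT8, ZT14 and ZT20, where zeitgeber time (ZT) by convention counts the hours since lights came on and the light schedule is not stated. There were 4 libraries of polyadenylated RNA per diet and time, hence 16 cdHFD and 16 chow libraries in all. The labels name the sex: 3 males and 1 female for cdHFD at ZT14, and 2 of each sex for every other group. No source used here states the strain or the age of the mice, nor that each library was a separate animal. The p-values therefore describe only the spread among these libraries, which may in part be technical.

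Hepatocytes make cholesterol from acetyl-CoA through mevalonate, farnesyl diphosphate, squalene and lanosterol. When sterols are scarce in the endoplasmic reticulum, SCAP carries the transcription factor SREBP2 to the Golgi, where it is cut free and switches on nearly the whole route together with lipoprotein uptake. When sterols are plentiful, the INSIG proteins hold SCAP back, while oxysterols act through LXR receptors on efflux transporters and on Mylip.

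Promoter sequence is shown for 6 members on which the results turn. These are 4 genes with large decreases (Hmgcs1, Nsdhl, Tm7sf2 and Insig1), Insig2, the paralogue that was not called between the diets, and Mylip, the single member that rose. Each run is the 250 bases before an annotated start (for Insig2 the first listed of 3, the other 2 of which hold no CCAAT in their windows), read 5′ to 3′ on the gene's strand, from RefSeq on GRCm38.p6. Capitals mark CCAAT, the letters read by NF-Y, and CACNCCA, a loose form of the sterol response element that SREBP2 binds, on either strand.
Hmgcs1, chr13:119690101-119690350, plus strand: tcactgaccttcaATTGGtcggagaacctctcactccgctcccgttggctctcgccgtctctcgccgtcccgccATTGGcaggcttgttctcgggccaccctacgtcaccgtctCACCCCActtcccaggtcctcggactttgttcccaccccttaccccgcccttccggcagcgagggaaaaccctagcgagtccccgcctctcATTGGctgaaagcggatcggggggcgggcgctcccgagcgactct
Nsdhl, chrX:72918271-72918520, plus strand: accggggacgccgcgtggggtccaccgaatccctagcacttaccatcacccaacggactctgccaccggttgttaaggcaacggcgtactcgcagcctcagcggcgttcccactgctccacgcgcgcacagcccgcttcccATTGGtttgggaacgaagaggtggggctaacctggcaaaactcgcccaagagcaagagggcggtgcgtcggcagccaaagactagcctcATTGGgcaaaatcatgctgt
Tm7sf2, chr19:6067851-6068100, minus strand: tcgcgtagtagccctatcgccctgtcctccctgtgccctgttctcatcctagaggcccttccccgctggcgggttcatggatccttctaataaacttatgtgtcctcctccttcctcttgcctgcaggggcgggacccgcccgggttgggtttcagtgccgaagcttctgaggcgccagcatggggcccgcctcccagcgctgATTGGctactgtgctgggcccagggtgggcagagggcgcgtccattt
Insig1, chr5:28071162-28071411, plus strand: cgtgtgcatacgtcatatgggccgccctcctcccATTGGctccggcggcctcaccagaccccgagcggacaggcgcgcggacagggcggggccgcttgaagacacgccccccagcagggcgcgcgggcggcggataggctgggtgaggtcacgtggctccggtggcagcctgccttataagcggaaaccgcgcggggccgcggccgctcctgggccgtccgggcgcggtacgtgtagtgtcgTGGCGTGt
Insig2, chr1:121332590-121332839, minus strand: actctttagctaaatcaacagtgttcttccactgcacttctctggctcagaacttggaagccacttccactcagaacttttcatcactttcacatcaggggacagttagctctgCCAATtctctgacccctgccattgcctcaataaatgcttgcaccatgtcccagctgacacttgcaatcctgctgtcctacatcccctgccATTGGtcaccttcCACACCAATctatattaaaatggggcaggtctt
Mylip, chr13:45389492-45389741, plus strand: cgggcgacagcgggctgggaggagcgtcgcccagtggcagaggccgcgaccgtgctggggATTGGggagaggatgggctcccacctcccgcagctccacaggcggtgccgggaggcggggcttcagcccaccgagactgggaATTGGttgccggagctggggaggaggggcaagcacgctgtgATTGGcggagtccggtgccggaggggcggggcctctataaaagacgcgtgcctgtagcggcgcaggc

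Of the 29 members 24 matched an entry in the RefSeq promoter table, and windows of 250 bases before to 50 after the start were searched on both strands. With the first listed window of each gene, CCAAT stood in 20 of these 24 members (83.3%), against 37.9% of all 27025 genes in the table. The stricter letters TCACNCCAC were found in 1 member, Hmgcs1 (4.17%, against 1.22% of all genes), where they cover the CACNCCA match marked in capitals. CACNCCA was found in 6 members (25.0%, against 18.3%), and the E-box CACGTG in 5 (20.8%, against 7.24%). DR4, a direct repeat of AGGTCA with 4 free bases between its copies, of the kind LXR receptors bind, was found in 0 of 24 members and in 0.0111% of all genes. Several genes have more than 1 annotated start. Over all 31 windows of the 24 members, CCAAT stood in 21 (against 37.4% of all 32851 windows) and CACGTG in 7 (against 7.15%), both of them also in Dhcr7, whose first window holds neither. These are counts of letters, and the shares carry no test.

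Nearly the whole synthesis route was lower in cdHFD livers. Averaged over the 4 times, 24 of 29 members fell, 1 rose (Mylip) and 4 were not called (Ggps1, Insig2, Abca1 and Soat2) by edgeR's quasi-likelihood test at a Benjamini-Hochberg adjusted p under 0.05. Over all 17853 genes tested, 31.2% fell and 31.0% rose by the same rule. The median log2 fold change, cdHFD over chow, was -2.23 for the members and -2.62 for the 19 enzymes, beside -0.016 for all genes tested. In 22 members every cdHFD library lay below every chow library, which was so for 2.68% of all genes, and in Mylip every cdHFD library lay above every chow library, which was so for 5.86%. Levels are given as CPM, each gene's count relative to the library's total, scaled by TMM, a factor per library that allows for differences in RNA composition. In whole liver, fewer cells of a type and less RNA per cell cannot be told apart.

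**Figure D1:**
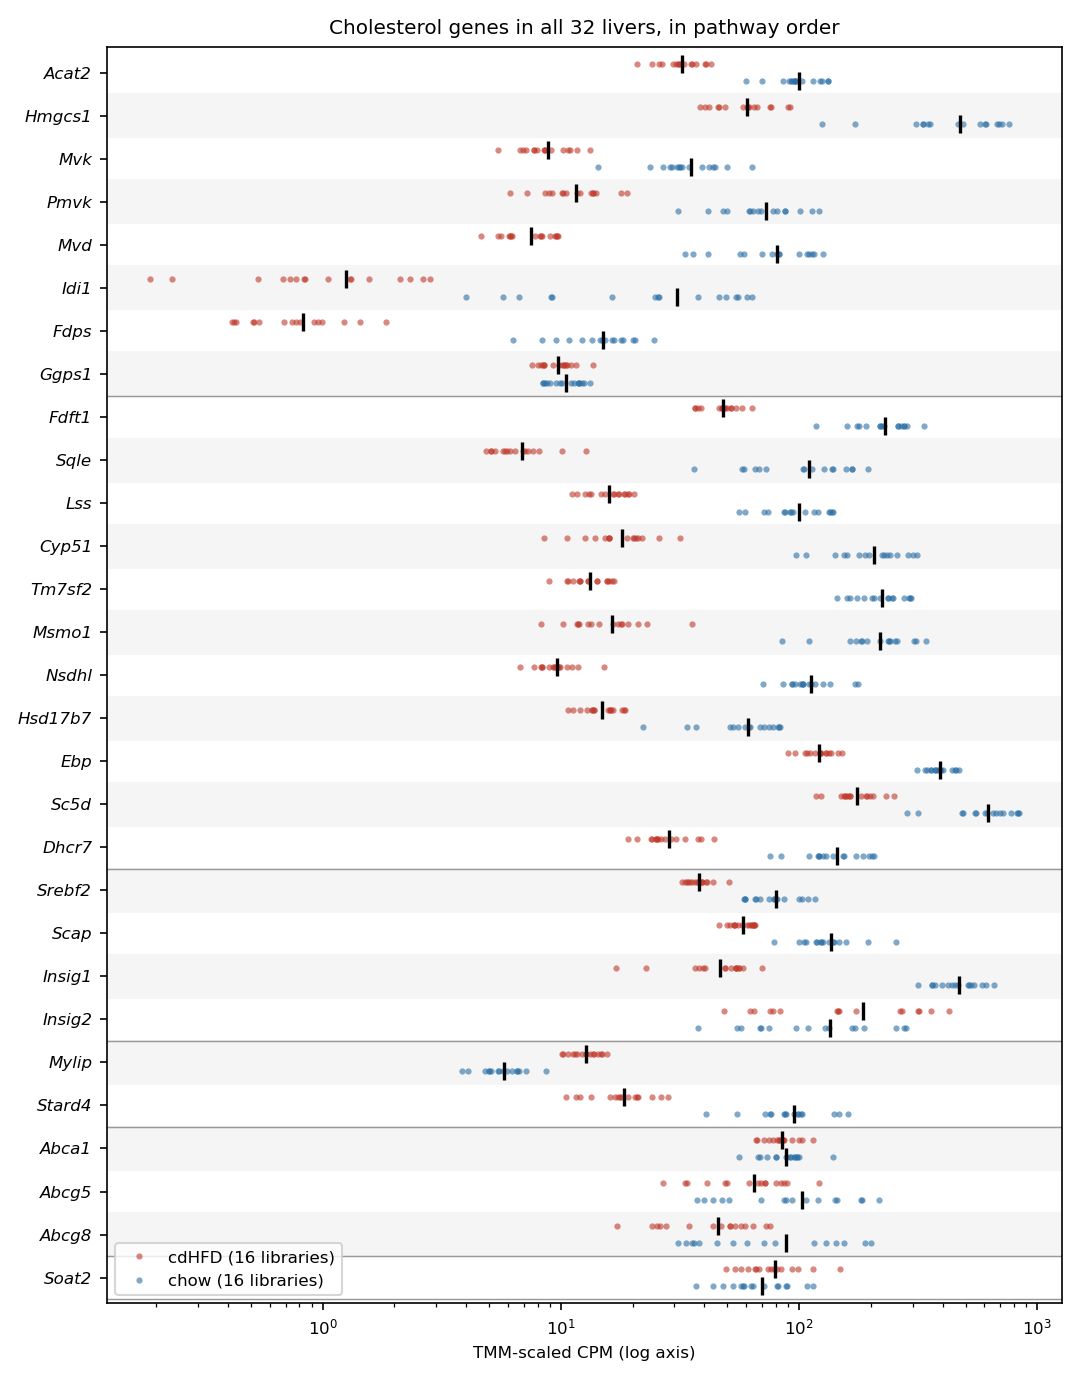
Level of each member in all 32 libraries in TMM-scaled CPM on a log axis, in pathway order from top to bottom, with cdHFD libraries above chow libraries and a black bar at each mean. The 16 cdHFD points lie wholly left of the 16 chow points in 22 members and wholly right of them in Mylip, and the diets overlap in 6.

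The libraries of the diets also differed in makeup. Total counts ran from 29.5 to 54.6 M, and the sex markers matched the label in 32 of 32 libraries. All 8 hepatocyte markers fell in cdHFD livers, with a summed level of 42505 to 75054 CPM in cdHFD livers and 117370 to 185310 CPM in chow livers. All 8 macrophage markers rose, with sums of 986 to 1709 CPM in cdHFD livers and 117 to 493 CPM in chow livers. Among the rest, 4 of 5 stellate cell, 2 of 3 cholangiocyte, 2 of 3 endothelial and 1 of 4 T and B cell markers rose. Their sums were 319 to 944, 12.1 to 68.4, 59.7 to 111 and 1.79 to 6.62 CPM in cdHFD livers, against 108 to 340, 6.85 to 35.8, 42.8 to 114 and 1.94 to 9.33 CPM in chow livers. Mitochondrial genes held 3.73 to 8.31% of counts in cdHFD livers (mean 5.12%) and 5.08 to 13.1% in chow livers (mean 8.11%). The TMM factors did not overlap, at 1.08 to 1.38 in cdHFD livers and 0.746 to 0.918 in chow livers. None of the markers was at 0 in every library of a diet. The part of these shifts in the results below was not tested beyond one measurement: with libraries scaled to the hepatocyte markers in place of TMM, which moved the median of all genes to 1.38, 20 of the 24 members still fell, and with total counts alone, which moved it to 0.56, 22 did. Those 20 were the 18 enzymes, Insig1 and Stard4, and the enzymes' median was then -1.22. Of all 17853 genes tested, 417 fell under hepatocyte-marker scaling and 1632 under total counts alone.

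The first steps build mevalonate and turn it into farnesyl diphosphate. Hmgcs1 acts on acetoacetyl-CoA. It lay at 38.5 to 91.9 CPM in cdHFD livers (median 60.8) and at 125 to 763 CPM in chow livers (median 477). Its groups did not overlap, and the log2 fold change was -2.85 ± 0.17 (SE, n = 16 per diet; adjusted p = 4.84e-15, edgeR's quasi-likelihood test). The chow libraries were spread widely, with the lowest, 2 males at ZT14, at 125 and 172 CPM. Acat2, the thiolase before it, averaged 32.2 ± 6.16 CPM in cdHFD livers and 100.4 ± 20.8 CPM in chow livers (SD, n = 16 each).

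The mevalonate kinases Mvk and Pmvk averaged 8.82 ± 2.05 and 11.6 ± 3.54 CPM in cdHFD livers, against 35.3 ± 11.5 and 72.7 ± 25.3 CPM in chow livers. Mvd, the decarboxylase that yields isopentenyl diphosphate, lay at 4.61 to 9.71 CPM in cdHFD livers (median 8.0) and at 33.3 to 126 CPM in chow livers (median 81.8), a log2 fold change of -3.34 ± 0.12. Idi1, the isomerase of that product, had the largest fitted change of the members at -4.55 ± 0.39, with 0.189 to 2.83 CPM in cdHFD livers (median 0.950) and 4.007 to 63.2 CPM in chow livers (median 25.8). It was also the most variable member in both diets, with a coefficient of variation of 66.5% in cdHFD livers and 69.3% in chow livers. Fdps, which joins isoprene units into farnesyl diphosphate, averaged 0.828 ± 0.401 CPM in cdHFD livers and 15.0 ± 4.83 CPM in chow livers, a log2 fold change of -4.23 ± 0.17.

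Ggps1 stood apart from the other enzymes. It makes geranylgeranyl diphosphate for protein prenylation, a branch off the sterol route, and lay at 7.54 to 13.7 CPM in cdHFD livers (median 9.99) and at 8.4 to 13.3 CPM in chow livers (median 10.5). The ranges overlapped almost wholly, and the log2 fold change of -0.12 ± 0.08 was not called (adjusted p = 0.20, edgeR's quasi-likelihood test), while it was at 0.46 under total counts alone and at 1.28 under hepatocyte-marker scaling.

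All 11 enzymes from squalene to cholesterol fell, and in each the diets did not overlap. Sqle, the squalene epoxidase, lay at 4.85 to 12.8 CPM in cdHFD livers (median 6.25) and at 36.4 to 194 CPM in chow livers (median 109), a log2 fold change of -3.92 ± 0.17. Cyp51, the lanosterol demethylase, lay at 8.49 to 31.7 CPM in cdHFD livers (median 17.4) and at 97.5 to 311 CPM in chow livers (median 210.1), a change of -3.51 ± 0.18. Tm7sf2, a sterol reductase of the next step, lay at 8.96 to 16.7 CPM in cdHFD livers (median 13.0) and at 144 to 294 CPM in chow livers (median 227). Its change of -4.06 ± 0.11 had the smallest adjusted p of the members (1.14e-21, edgeR's quasi-likelihood test).

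The demethylating pair Msmo1 and Nsdhl changed by -3.73 ± 0.19 and -3.53 ± 0.11 on the log2 scale. The squalene synthase gene Fdft1, the cyclase gene Lss and Dhcr7, a reductase of the last step, changed by -2.23 ± 0.09, -2.62 ± 0.10 and -2.32 ± 0.13. The smallest changes of the sterol part were those of the keto-reductase Hsd17b7 (-2.0 ± 0.13), the desaturase Sc5d (-1.80 ± 0.13) and the isomerase Ebp (-1.67 ± 0.07). Ebp and Sc5d had means of 121 ± 16.7 and 175 ± 35.4 CPM in cdHFD livers and 389 ± 45.0 and 618 ± 168 CPM in chow livers (SD, n = 16 each). The largest adjusted p among the 18 enzymes that fell was 3.13e-10, that of Idi1 in edgeR's quasi-likelihood test.

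The genes of SREBP2 control split. Srebf2, which encodes SREBP2, lay at 32.2 to 50.6 CPM in cdHFD livers (median 37.7) and at 58.7 to 117 CPM in chow livers (median 78.3). Scap, its escort, lay at 46.0 to 65.6 CPM in cdHFD livers (median 58.9) and at 78.1 to 255 CPM in chow livers (median 125). Neither gene's diets overlapped, and the log2 fold changes were -1.04 ± 0.09 and -1.19 ± 0.08, but both turned to 0.35 and 0.21 when libraries were scaled to hepatocyte markers. Insig1, itself a target of SREBP2, lay at 17.0 to 69.8 CPM in cdHFD livers (median 50.4) and at 317 to 656 CPM in chow livers (median 456), a change of -3.37 ± 0.14 (adjusted p = 2.33e-18, edgeR's quasi-likelihood test). The 2 lowest cdHFD libraries were the females at ZT20, at 22.9 and 17.0 CPM.

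Insig2, the paralogue of Insig1, did not follow it. It lay at 48.6 to 426 CPM in cdHFD livers (median 146) and at 37.6 to 281 CPM in chow livers (median 119), and the diets overlapped over most of their range. The average log2 fold change was 0.38 ± 0.23 (adjusted p = 0.108, edgeR's quasi-likelihood test). Without chow ZT8 replicate 1 it was called at 0.49, and without cdHFD ZT2 replicate 4 at 0.47. It was also called at 0.95 under total counts alone, at 1.78 under hepatocyte-marker scaling and at 0.40 without a filter on low counts. By CPM per kilobase of annotated exons, which allow levels to be compared between genes, Insig2 was the highest of the 29 members in cdHFD livers (53.6) and the 12th in chow livers (38.9). Insig1 was the 6th in cdHFD livers (15.1) and the 2nd in chow livers (152).

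Mylip, a ubiquitin ligase that marks lipoprotein receptors for breakdown, rose. It lay at 10.2 to 15.6 CPM in cdHFD livers (median 12.8) and at 3.85 to 8.71 CPM in chow livers (median 5.61), with no overlap and a log2 fold change of 1.15 ± 0.09 (adjusted p = 1.82e-12, edgeR's quasi-likelihood test). Stard4, which carries sterol between membranes, lay at 10.5 to 28.1 CPM in cdHFD livers (median 17.8) and at 40.7 to 161 CPM in chow livers (median 91.8), also with no overlap. Its log2 fold change was -2.34 ± 0.12.

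Of the export and storage genes 2 of 4 fell. Abca1, which loads cholesterol onto lipid-poor apolipoprotein, lay at 66.1 to 114 CPM in cdHFD livers (median 83.3) and at 55.9 to 139 CPM in chow livers (median 90.2), and its change of -0.07 ± 0.09 was not called (adjusted p = 0.526, edgeR's quasi-likelihood test), though it was at 0.51 under total counts alone and at 1.33 under hepatocyte-marker scaling. Abcg5 and Abcg8, whose products pair to pump sterols into bile, fell by 0.53 and 0.77 on the log2 scale with SE 0.12 and 0.15 (adjusted p = 1.35e-04 and 2.05e-05, edgeR's quasi-likelihood test), with diets that overlapped. Both directions depend on the scaling: under total counts alone Abcg5 was at 0.040 and Abcg8 at -0.19, neither called, and under hepatocyte-marker scaling both rose, at 0.85 and 0.63. Soat2, which esterifies cholesterol in hepatocytes, averaged 79.3 ± 25.2 CPM in cdHFD livers and 69.7 ± 22.2 CPM in chow livers (SD, n = 16 each), a change of 0.21 ± 0.12 that was not called (adjusted p = 0.124, edgeR's quasi-likelihood test). Soat2 was called at 0.78 under total counts alone, at 1.6 under hepatocyte-marker scaling and at 0.23 without a filter on low counts.

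In CPM per kilobase of annotated exons, the 5 highest members in cdHFD livers were Insig2, Ebp (52.6), Sc5d (35.9), Soat2 (35.8) and Abcg5 (23.9), and in chow livers Ebp (168), Insig1, Sc5d (127), Hmgcs1 (103) and Fdft1 (54.2). Fdps was the lowest in cdHFD livers (0.197), and Mylip in chow livers (1.78). These levels rest on all annotated exons, of which a liver may use only part.

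Some of these counts share sequence with other genes. The spliced sequence of 5 members (Acat2, Idi1, Fdps, Ggps1 and Fdft1) has a copy elsewhere that matched at 95% identity or more over at least 200 bases. The Fdps pseudogene Gm3571, at 98.9% identity, held 16720 counts over all libraries against 7982 for Fdps, and its log2 fold change was -3.68 ± 0.14. Acat3, at 97.7% identity to Acat2, held 167193 counts against 73597 and changed by -0.65 ± 0.06. The Idi1 pseudogene Gm13502, at 100% identity over 684 bases, held 397 counts against 17174 for Idi1. How reads were divided between such copies is not known, so the levels of Fdps, Acat2 and Idi1 are uncertain. Tm7sf2 shares 532 of its 4403 exon bases with Vps51 on the same strand. The libraries do not mark strand, and Fdft1 shares 774 of its 4227 exon bases with Ctsb on the opposite strand, a gene that changed by 0.66 ± 0.06. Abcg5 and Abcg8 lie head to head on chromosome 17 and share 82 exon bases.

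Other genes of cholesterol handling moved in both directions. Of 36 listed, 35 were tested and 26 were called, of which 11 rose and 15 fell. Over all genes 11092 of 17853 were called, where 31.0% rose and 31.2% fell. The median log2 fold change of the listed genes was -0.07. Abcg1, a sterol exporter of macrophages and other cells, lay at 22.7 to 37.3 CPM in cdHFD livers (median 29.5) and at 3.37 to 7.12 CPM in chow livers (median 4.96), a change of 2.55 ± 0.10. Soat1, the esterifying enzyme of macrophages and most other cells, lay at 14.7 to 26.9 CPM in cdHFD livers (median 21.2) and at 1.81 to 5.93 CPM in chow livers (median 3.99), a change of 2.49 ± 0.13. For both, no cdHFD library overlapped a chow library, and the macrophage markers given above moved the same way. Ch25h, which makes an oxysterol, reached 1.52 CPM in cdHFD livers and 0.331 CPM in chow livers at most, too few counts for a fitted fold to be more than a guide. Acly, which supplies cytosolic acetyl-CoA, averaged 55.1 CPM in cdHFD livers and 236 CPM in chow livers, a change of -2.02 ± 0.15.

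The decrease of the synthesis enzymes was present at every time. The same 18 of 19 enzymes fell at ZT2, ZT8, ZT14 and ZT20, as did Srebf2, Scap, Insig1 and Stard4, of which Srebf2 and Scap turned upward on average under hepatocyte-marker scaling. The members that fell numbered 22 at ZT2, 24 at ZT8, 24 at ZT14 and 22 at ZT20, where 20.7%, 19.4%, 15.8% and 19.3% of all genes fell. Mylip rose at each time, and Insig2 and Soat2 rose at ZT14 alone among the 4 times (log2 fold change 1.07 and 0.61; adjusted p = 0.0439 and 0.0440, edgeR's quasi-likelihood test). All genes that rose made up 21%, 20.6%, 19.8% and 19.8% of those tested at the 4 times. The calls of Insig2 and Soat2 at ZT14 were both lost without chow ZT14 replicate 2, without cdHFD ZT8 replicate 3, without cdHFD ZT14 replicate 1 and without cdHFD ZT14 replicate 3, which left Mylip alone.

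**Figure D2:**
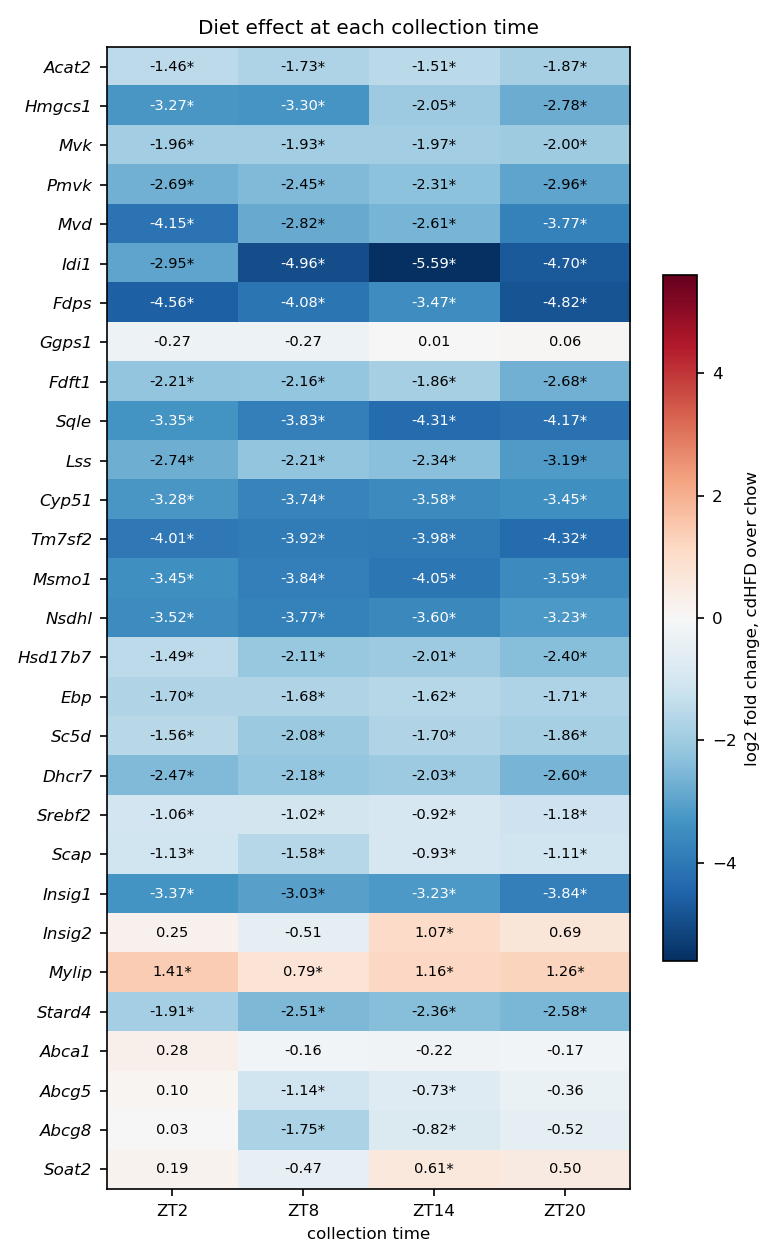
Log2 fold change, cdHFD over chow, of each member at each collection time, written in each cell and drawn in blue where negative and in red where positive, with a star at an adjusted p under 0.05. The enzymes other than Ggps1 are blue at all 4 times, Mylip is red at all 4, and Abcg5 and Abcg8 are starred at ZT8 and ZT14. Averaged over the times, Ggps1, Srebf2, Scap, Abca1, Abcg5 and Abcg8 were above 0 under hepatocyte-marker scaling, and Ggps1, Abca1 and Abcg5 under total counts alone.

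The size of the diet effect differed between the times in 2 members, Mvd (adjusted p = 0.00775) and Abcg8 (adjusted p = 0.0239) by edgeR's quasi-likelihood test, beside 5.77% of all genes. For Mvd the cdHFD libraries lay at 6.06, 5.63, 4.61 and 8.23 CPM at ZT2 and at 9.53, 9.71, 7.80 and 9.43 CPM at ZT14. The chow libraries lay at 81.1, 116, 126 and 113 CPM at ZT2 and at 56.4, 41.4, 58.6 and 82.6 CPM at ZT14. The gap was therefore widest at ZT2 (-4.15 on the log2 scale) and narrowest at ZT14 (-2.61). For Abcg8 the change was 0.03 at ZT2, -1.75 at ZT8, -0.82 at ZT14 and -0.52 at ZT20. Abcg8 lost this call without cdHFD ZT2 replicate 2, without cdHFD ZT8 replicate 3 and without cdHFD ZT8 replicate 4. Abcg5 gained it without chow ZT2 replicate 4, chow ZT14 replicate 2 or 3, cdHFD ZT2 replicate 1, cdHFD ZT14 replicate 2 or cdHFD ZT20 replicate 3. Lss gained it without chow ZT8 replicate 3 or cdHFD ZT20 replicate 2, Hmgcs1 without chow ZT14 replicate 3, and Soat2 without cdHFD ZT2 replicate 4.

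A daily rhythm, tested with a cosine of 24 h period, was called in 8 members in chow livers and in 1 in cdHFD livers. The share of all genes called was 2.47% in cdHFD livers and 17.7% in chow livers. In chow livers the 8 were 3 enzymes (Hmgcs1, Mvd and Lss), the regulators Scap and Insig2, the transporters Abcg5 and Abcg8, and Soat2. Without a shape assumed, any difference between the times was called in 3 members in cdHFD livers (Insig2, Abcg5 and Abcg8) and in 11 in chow livers, beside 5.43% and 32.1% of all genes. The median amplitude over the members, from mean to peak on the log2 scale, was 0.21 in cdHFD livers and 0.26 in chow livers, beside 0.18 and 0.27 over all genes.

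**Figure D3:**
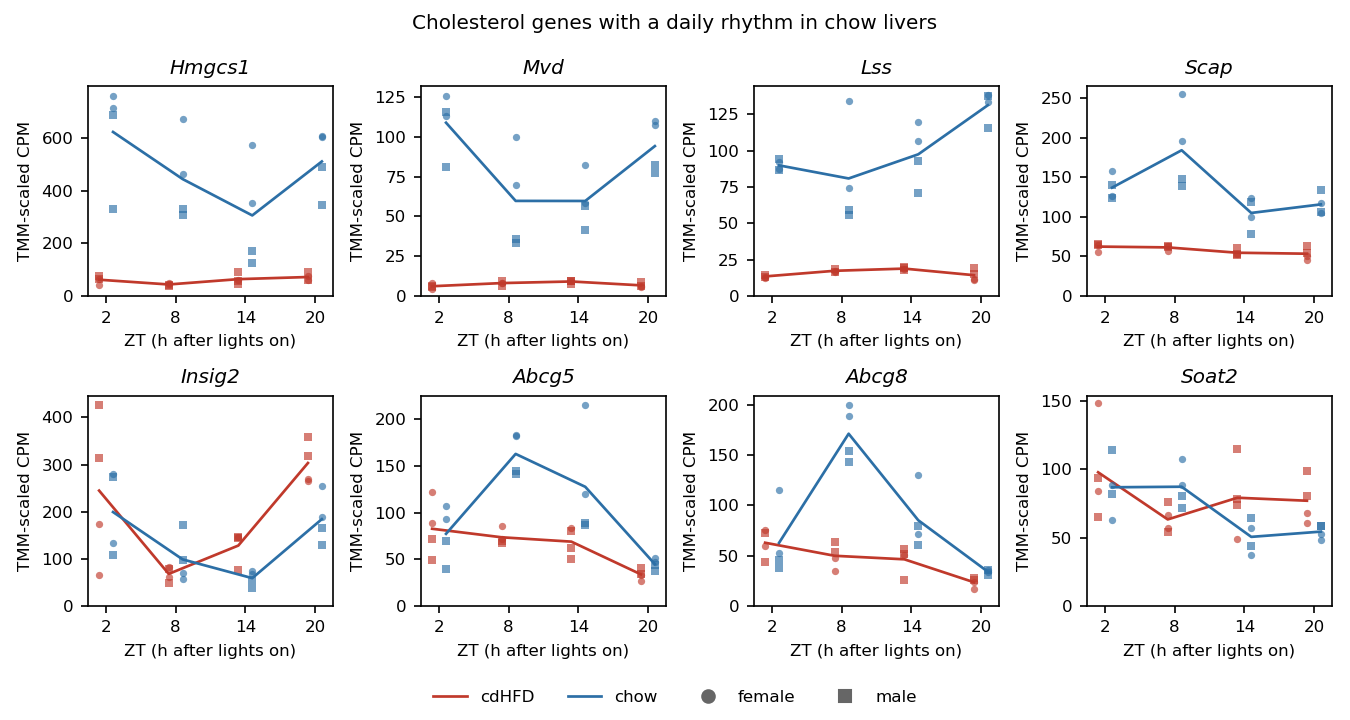
Level in TMM-scaled CPM by collection time (hours after lights on) of the 8 members with a rhythm called in chow livers, with lines through the group means, circles for females and squares for males. Insig2 is high at ZT20 and ZT2 in both diets, while Abcg5 and Abcg8 peak at ZT8 in chow livers and are lowest at ZT20 in both.

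Insig2 was rhythmic in both diets. In cdHFD livers it lay at 426, 315, 173 and 64.7 CPM at ZT2, at 77.4, 48.6, 62.2 and 83.4 CPM at ZT8, at 144, 75.5, 146 and 147 CPM at ZT14, and at 359, 319, 266 and 270 CPM at ZT20. In chow livers it lay at 274, 109, 133 and 281 CPM at ZT2, at 172, 96.7, 57.0 and 69.0 CPM at ZT8, at 54.9, 37.6, 68.6 and 74.5 CPM at ZT14, and at 129, 166, 254 and 188 CPM at ZT20. At ZT20 every library of either diet was above every ZT14 library of chow, and the spread within ZT2 was wide in both diets. The fitted amplitude was 1.15 ± 0.22 with a peak at 21.2 h in cdHFD livers (adjusted p = 0.00370) and 0.98 ± 0.22 with a peak at 24 h in chow livers (adjusted p = 0.00390), by edgeR's quasi-likelihood test. The difference between these rhythms was not called (adjusted p = 0.273, edgeR's quasi-likelihood test).

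Abcg8 had the largest amplitude of the members in chow livers. In cdHFD livers it lay at 43.7, 72.6, 59.5 and 75.7 CPM at ZT2, at 64.1, 53.7, 47.2 and 34.6 CPM at ZT8, at 26.1, 57.0, 51.4 and 51.1 CPM at ZT14, and at 27.6, 25.4, 17.2 and 24.1 CPM at ZT20. In chow livers it lay at 45.3, 38.0, 52.8 and 115 CPM at ZT2, at 154, 143, 200 and 189 CPM at ZT8, at 79.4, 60.4, 130.2 and 71.2 CPM at ZT14, and at 30.9, 36.1, 33.6 and 35.5 CPM at ZT20. All 4 chow livers at ZT8 were above every other chow liver, and above every cdHFD liver. The amplitude was 0.58 ± 0.17 in cdHFD livers (adjusted p = 0.170) and 1.19 ± 0.17 in chow livers (adjusted p = 1.64e-05, edgeR's quasi-likelihood test), with a peak at 8.84 h in chow livers.

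Abcg5 moved with it. In cdHFD livers it lay at 48.8, 71.8, 88.6 and 122 CPM at ZT2, at 67.0, 69.1, 86.1 and 72.1 CPM at ZT8, at 49.998, 80.2, 61.7 and 83.8 CPM at ZT14, and at 41.1, 34.0, 26.8 and 33.4 CPM at ZT20. In chow livers it lay at 69.4, 39.9, 93.2 and 107 CPM at ZT2, at 145, 142, 182 and 184 CPM at ZT8, at 86.4, 88.5, 216 and 120.3 CPM at ZT14, and at 37.2, 43.6, 47.4 and 51.0 CPM at ZT20. In cdHFD livers all 4 libraries at ZT20 were below all others. The amplitude was 0.57 ± 0.14 in cdHFD livers (adjusted p = 0.113) and 1.0 ± 0.14 in chow livers (adjusted p = 3.03e-05, edgeR's quasi-likelihood test), and the test of the difference between the diets was not passed by Abcg5 (adjusted p = 0.168) or Abcg8 (adjusted p = 0.123).

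The 3 rhythmic enzymes had fitted peaks in chow livers at 19.6 h (Lss), 23.2 h (Mvd) and 1.25 h (Hmgcs1). Scap and Soat2 peaked at 5.85 h and 4.71 h, and with 4 times a peak is known only coarsely. The amplitudes of Hmgcs1, Mvd and Lss were 0.62 ± 0.17, 0.60 ± 0.12 and 0.40 ± 0.10 in chow livers. In cdHFD livers they were 0.36 ± 0.17, 0.36 ± 0.12 and 0.29 ± 0.10, none of them called (adjusted p = 0.504, 0.269 and 0.279, edgeR's quasi-likelihood test). Mvd was the one member whose rhythm differed between the diets (adjusted p = 0.00484), beside 3.64% of all genes. Its fitted peak was at 12.5 h in cdHFD livers and at 23.2 h in chow livers. Lss passed that test too without chow ZT8 replicate 3, chow ZT14 replicate 2, cdHFD ZT2 replicate 4 or cdHFD ZT20 replicate 2, Abcg8 without chow ZT2 replicate 4, and Soat2 without cdHFD ZT2 replicate 4. The chow call of Hmgcs1 was lost in 7 of 32 fits that each left out 1 library (chow ZT2 replicates 1, 3 and 4, ZT8 replicate 2, and ZT14 replicates 1, 2 and 4), with an adjusted p of up to 0.118. That of Lss was lost in 5 (chow ZT8 replicates 1, 2 and 4, and ZT20 replicates 2 and 3), with an adjusted p of up to 0.0752. Hmgcs1 also lost its chow call without a sex term (adjusted p = 0.0743, edgeR's quasi-likelihood test). Chow calls were gained too, by Pmvk, Fdps, Sqle and Dhcr7 without chow ZT8 replicate 3, and by Sqle and Stard4 without chow ZT14 replicate 2. Stard4 also passed in the DESeq2 test, and Dhcr7 under hepatocyte-marker scaling. Over the 32 fits, 6 to 12 members were called rhythmic in chow livers.

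Sex went with the size of the diet effect. The 19 enzymes summed to 560.3 ± 62.1 CPM in cdHFD females (n = 7) and 631 ± 85.6 CPM in cdHFD males (n = 9), against 3677 ± 501 CPM in chow females and 2779 ± 594.5 CPM in chow males (SD, n = 8 each). The median diet effect over the enzymes was -3.05 in females and -2.36 in males on the log2 scale. The diet effect was more negative in females in 27 of 29 members, and the difference itself was called in 7 of them, by edgeR's quasi-likelihood test: Hmgcs1, Mvk, Sqle, Cyp51, Msmo1, Dhcr7 and Srebf2. Over all genes 1.85% were called for this difference, 1.05% in that direction, and the median difference was -0.46 for the members and -0.014 for all genes. The calls within a sex were alike in number: 24 members fell and Mylip rose in females, and 24 fell and Mylip rose in males. Over all genes 22.2% fell and 24% rose in females, and 26.4% fell and 26.6% rose in males.

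**Figure D4:**
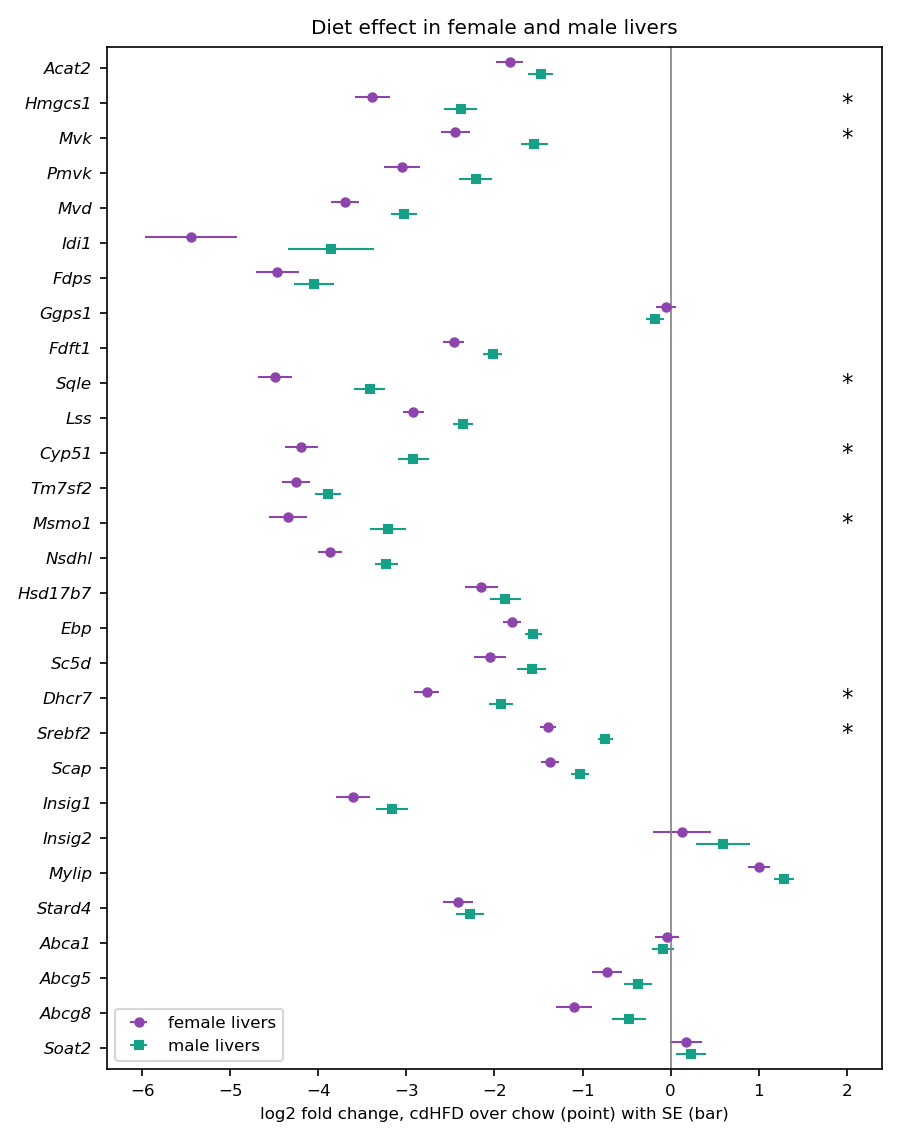
Log2 fold change, cdHFD over chow (point) with its SE (bar), of each member in females (circles) and males (squares), with a star where the sexes differ at an adjusted p under 0.05. The female point lies left of the male point in 27 of 29 members, and the 7 starred members are Hmgcs1, Mvk, Sqle, Cyp51, Msmo1, Dhcr7 and Srebf2.

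Cyp51 showed the widest gap of these 7. Females lay at 8.49 to 15.9 CPM on cdHFD (median 14) and at 141 to 311 CPM on chow (median 249.7). Males lay at 15.4 to 31.7 CPM on cdHFD (median 20.8) and at 97.5 to 234 CPM on chow (median 168.5). Females were thus mostly below males on cdHFD and mostly above them on chow, with overlap in both diets. The diet effect was -4.19 ± 0.19 in females and -2.92 ± 0.18 in males, a difference of -1.27 ± 0.26 (adjusted p = 0.00170, edgeR's quasi-likelihood test).

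Srebf2 followed the same order. Females lay at 32.2 to 38.6 CPM on cdHFD (median 35.5) and at 78.2 to 117 CPM on chow (median 90.3). Males lay at 33.1 to 50.6 CPM on cdHFD (median 39.3) and at 58.7 to 86.4 CPM on chow (median 65.6). The diet effect was -1.39 ± 0.09 in females and -0.74 ± 0.09 in males, a difference of -0.64 ± 0.13 (adjusted p = 0.00605, edgeR's quasi-likelihood test). For the other 5 the differences ran from -0.84 ± 0.20 (Dhcr7) to -1.14 ± 0.30 (Msmo1), with adjusted p from 0.0148 (Sqle) to 0.0344 (Hmgcs1). Without cdHFD ZT2 replicate 4 and cdHFD ZT20 replicate 2, chosen after seeing the data, Cyp51 and Srebf2 kept the call and the other 5 lost it. Without chow ZT2 replicate 2 and chow ZT14 replicate 2, Hmgcs1 (adjusted p = 0.0827) and Msmo1 (adjusted p = 0.0523) lost it in edgeR's quasi-likelihood test. Under hepatocyte-marker scaling Hmgcs1, Sqle and Srebf2 lost it. Without 1 library at a time, Hmgcs1 lost it in 11 of 32 fits (chow ZT2 replicate 2, ZT8 replicate 3, ZT14 replicates 1 and 2 and ZT20 replicate 1, and cdHFD ZT2 replicates 1, 2 and 4, ZT14 replicate 4 and ZT20 replicates 2 and 4). The difference for Hmgcs1 ran from -0.87 to -1.15 over all 32 fits. Msmo1 lost the call in 1 fit, without cdHFD ZT20 replicate 4.

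Within chow, 8 members were higher in females: Hmgcs1, Mvk, Mvd, Fdft1, Sqle, Cyp51, Srebf2 and Abcg5, where 6.12% of all genes were higher. Without chow ZT2 replicate 2 and chow ZT14 replicate 2, chosen after seeing the data, Cyp51 (0.41, adjusted p = 0.0921) and Abcg5 (0.48, adjusted p = 0.0522) lost the call in edgeR's quasi-likelihood test. Hmgcs1 had the largest difference of these, 0.88 ± 0.19 on the log2 scale (adjusted p = 0.00112, edgeR's quasi-likelihood test), with 355 to 763 CPM in chow females (median 606) and 125 to 687 CPM in chow males (median 331). The sexes overlapped through 2 male libraries, at 687 CPM at ZT2 and 489 CPM at ZT20. Within cdHFD 1 member was called, Cyp51, lower in females by -0.69 ± 0.19 (adjusted p = 0.0414), where 0.426% of all genes were lower, and this call was lost in 13 of 32 fits that each left out 1 library. Those were chow ZT20 replicate 4 and all cdHFD libraries but ZT2 replicate 3, ZT14 replicates 2 and 4, and ZT20 replicate 1. Over all 32 fits the difference ran from -0.60 to -0.78. In chow livers 7 of 8 macrophage markers were also higher in females, 1 of 8 hepatocyte markers was higher and 1 lower, where 3.36% of all genes were lower. For the difference between the diet effects, 2 macrophage markers and 0 hepatocyte markers were called, and the part of these shifts in the sex differences was not tested.

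A few libraries held the extremes of many enzymes. Among chow libraries, ZT14 replicate 2, a male, was the lowest of 16 in 8 of the 19 enzymes and had the highest mitochondrial share, 13.1%, whose part in this was not tested. ZT2 replicate 2, also a male, was the lowest in 5 enzymes. Among cdHFD libraries, ZT2 replicate 4, a female, was the lowest in 9 enzymes and ZT20 replicate 2, a male, the highest in 9. The standard deviation within a group of 4, on the log2 scale, had a median over the members of 0.29 in cdHFD livers and 0.38 in chow livers, and was larger in chow for 20 of 29. Leaving out either of these pairs of libraries, chosen after seeing the data, left 24 members that fell.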

How the data were processed

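Polyadenylated liver RNA was sequenced as non-directional libraries from RNA with an integrity number above 6.5, per the labels' protocols. The authors deposited raw counts per gene, made with HISAT2, featureCounts and the mouse build GRCm38 (mm10), with DESeq2 also named, per the submitters' processing notes; no source used here gives options or versions. Groups follow the labels. Genes were kept by edgeR's filterByExpr on the 8 groups (17853 of 54532), scaled by TMM and tested with edgeR 4.0.16 (robust quasi-likelihood, Benjamini-Hochberg adjustment over all genes tested, threshold 0.05) in R 4.3.3. The 3 models had group plus sex, a 24 h cosine within each diet plus sex, and group plus sex within diet. SE, amplitudes and peaks came from least-squares fits to log2 CPM with a prior count of 2, and fold changes from edgeR. Total counts were 29.5 to 54.6 M per library, and replicates of a group differed by far more than counting error in all 48 pairs, so the spread between libraries sets the precision. Coordinates and exon lengths are from GENCODE M21, copies from blastn 2.17.0.

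The members, lists, models and named genes were chosen with earlier results of these data known. All members are named. From the wider pathway list the rule names the 3 called genes with the largest rise and the 3 with the largest fall, of which 2 are not reported here. The 3 members with the largest amplitude in each diet are given library by library. Alternatives were DESeq2 1.42.0 size factors and test, total counts, scaling to hepatocyte markers, no filter, no sex term, a replicate block, a test of any time difference and leaving out each library. The fits were tested on simulated counts.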

Additional observations from a re-analysis of the deposited data

Results flagged for a closer look

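In 15 of 232 groups of 4 libraries (29 members in 8 groups each), 1 library stood far from the other 3, where chance gives about 1 in 20 groups. In cdHFD livers, ZT20 replicate 2 stood high in Mvk (13.2 CPM), Fdft1 (49.8 CPM) and Nsdhl (15.2 CPM), and ZT8 replicate 1 stood high in Sqle (10.1 CPM) and Nsdhl (8.91 CPM). Also in cdHFD livers, Hsd17b7 was high in ZT14 replicate 4 (16.1 CPM), the 1 female of that group, and Dhcr7 in ZT8 replicate 2 (37.6 CPM). Low cdHFD values were those of Mvd in ZT14 replicate 3 (7.80 CPM), Scap in ZT2 replicate 3 (55.4 CPM) and Insig2 in ZT14 replicate 2 (75.5 CPM). In chow livers, ZT8 replicate 3 stood high in Acat2 (133 CPM) and Nsdhl (172 CPM), and ZT2 replicate 4 in Mvk (49.8 CPM). Low chow values were those of Sqle in ZT14 replicate 2 (57.8 CPM) and Msmo1 in ZT20 replicate 1 (163 CPM).

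The diet effect was called different between times or sexes in the members below, by edgeR's quasi-likelihood test. Between the 4 times it differed in Mvd (adjusted p = 0.00775, from -4.15 at ZT2 to -2.61 at ZT14 on the log2 scale) and in Abcg8 (adjusted p = 0.0239). The rhythm of Mvd also differed between the diets (adjusted p = 0.00484), as 1 of 29 members, beside 3.64% of all genes. Between the sexes the diet effect differed, more negative in females, in Cyp51 (adjusted p = 0.00170), Srebf2 (0.00605), Sqle (0.0148), Dhcr7 (0.0149), Mvk (0.0172), Msmo1 (0.0234) and Hmgcs1 (0.0344). These are 7 of 29 members, where 1.05% of all genes were called in that direction.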

How the results depend on the processing

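The 24 members that fell on average were 24 under DESeq2 size factors, the DESeq2 test, no filter, no sex term, the replicate block and every fit without 1 library, 22 under total counts and 20 under hepatocyte-marker scaling. Median log2 changes of all genes were 0.56 under total counts (88.3% of calls higher, against 49.9% as reported) and 1.38 under hepatocyte scaling (97.5%). Under total counts Ggps1, Abca1 and Abcg5 turned to 0.46, 0.51 and 0.040. Under hepatocyte scaling Ggps1, Srebf2, Scap, Abca1, Abcg5 and Abcg8 turned to 1.28, 0.35, 0.21, 1.33, 0.85 and 0.63. Members that rose on average (1) then numbered 5 under total counts and 9 under hepatocyte scaling, where 12353 and 16326 of all 17853 genes rose. At ZT2, ZT8, ZT14 and ZT20 the members that rose numbered 7, 6, 8 and 9 under hepatocyte scaling. At ZT2, ZT8 and ZT20 they numbered 4, 2 and 4 under total counts. Without a filter 34789 genes were tested, so the shares of all genes given above do not apply to that fit. There 3 members rose on average and 3 at ZT20, 11 differed in diet effect between times and 10 differed in rhythm. Rhythmic members numbered 6 in cdHFD and 13 in chow livers, and 5 and 14 differed by sex in cdHFD and in chow livers. The diet effect differed by sex in 13. The DESeq2 test gave 4 members for the diet effect between times, 2 rhythmic in cdHFD livers and 2 whose rhythm differed, total counts 2 whose rhythm differed, hepatocyte scaling 2 rhythmic in cdHFD livers, 0 by sex in cdHFD livers and 4 for the diet effect by sex, and the test of any time difference 3 in cdHFD livers. The cause was not tested. Unless printed beside them, shares of all genes are not given for the counts in this paragraph, which show only how the member calls moved. Without cdHFD ZT2 replicate 4 and ZT20 replicate 2, a pair chosen after seeing the data like the chow pair that follows, the counts were 2 risen, 6 between times, 3 in rhythm, 0 by sex in cdHFD livers and 2 in diet effect by sex. Without chow ZT2 replicate 2 and ZT14 replicate 2 they were 2 in rhythm and 1 risen at ZT14. Over the fits without 1 library, counts ran from 1 to 2 (risen), 1 to 4 (between times) and 6 to 12 (rhythmic in chow livers). They also ran from 1 to 3 (rhythm difference), 0 to 1 (sex in cdHFD livers) and 1 to 3 (risen at ZT14). Over these fits and those without either pair of libraries, the sex differences within cdHFD of Hmgcs1, Mvd and Fdft1 were never called. Those differences ran from -0.17 to 0.052, from -0.14 to 0.056 and from -0.026 to 0.12, with Mvd at 0.066 under hepatocyte scaling. Same-numbered libraries of different groups correlated at -0.26 to 0.46 (median 0.19), beside a median of 0.18 for same-sex libraries of other numbers. Of 32 libraries 14 correlated best with their own number. These values do not settle whether replicate numbers pair libraries across groups. The replicate block gave 1 risen member at ZT14 and left 22, 24, 24 and 22 fallen at ZT2, ZT8, ZT14 and ZT20. Numbers 1 and 2 are males and 3 and 4 females in every group, except for cdHFD ZT14 replicate 3, a male. With the block, the sex difference within a diet therefore rests on that library, and its 0 calls by sex in either diet cannot test sex. Hmgcs1, Mvd and Srebf2 were then at 0.29, 0.22 and 0.019 between cdHFD females and males.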
